A study of Homo sapiens with 2 samples.

Results

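The mitochondrial ribosomal proteins are nuclear-encoded proteins of the ribosome that works inside mitochondria, and their genes are named MRPL for the large subunit and MRPS for the small subunit. Genes were taken as members where the platform annotation gave a probe set a single symbol of that form. This gave 73 genes from 74 probe sets, 48 of the large and 25 of the small subunit, among 18404 named genes and 32321 probe sets in all. The RefSeq gene table holds 77 protein-coding genes with such symbols, and the other 4 (MRPL51, MRPS6, MRPS24 and MRPS28) had no probe set of their own here. RNA came from HL-60, a human promyelocytic leukaemia line, grown as the unmodified wild type, and was measured on 2 arrays (Affymetrix Human Gene 1.0 ST), replicate 1 and replicate 2. These form 1 group, so there is no treated or mutant group and no p-value is given. No label tells separate cultures from repeat measurements, so the spread between the replicates may be technical.

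Mitochondria keep a small genome that encodes core subunits of the respiratory chain, and a dedicated ribosome translates it at the inner membrane. The RNAs of this ribosome are made in the organelle, while all of its proteins are made in the cytosol and imported. Part of the proteins descend from those of bacterial ribosomes and the rest were acquired in mitochondria. Myeloid leukaemia cells are known to depend on mitochondrial translation for respiration.

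Values are log2 signals per gene made by RMA, and each is given for replicate 1 and then replicate 2, or as mean ± SD over both (n = 2). Probes differ in how brightly they hybridise, so different genes are set side by side as signals only, not as transcript abundance, and fewer cells with a transcript cannot be told apart from less RNA per cell. Background was set by 340 olfactory receptor genes, with a 95th percentile of 2.98 for replicate 1 and 2.87 for replicate 2. A higher threshold came from 115 keratin-associated protein, bitter taste receptor and beta-defensin genes, with a 95th percentile of 5.41 for replicate 1 and 5.23 for replicate 2. Over all genes, replicate 2 minus replicate 1 had an SD of 0.39, or 0.28 per array. For 962 genes (5.23%) the deposited values were equal on both arrays, so an SD of 0 shows no smaller error. Of 8 measured markers of the line, 8 were above the olfactory threshold, against 55.8% of all genes, and 6 above the second. The progenitor factor MYB read 9.29 and 9.53 and the granule enzyme gene MPO 8.21 and 7.48. ELANE (4.47 and 4.71) and AZU1 (3.01 and 3.19) did not pass the second, and AZU1 lay close to the olfactory threshold. Of 13 markers of other cell types 2 were above the olfactory threshold, COL1A1 (3.75 and 3.63) and CD79B (3.33 and 3.19), and 0 above the second.

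Nearly all genes of the mitochondrial ribosome were above background. A total of 72 of 73 members exceeded the olfactory threshold on both arrays, against 55.8% of all genes. The second threshold was exceeded by 42 members (57.5%), against 17% of all genes. The median member read 5.77 on replicate 1 and 5.46 on replicate 2, where the median over all genes was 3.35 and 3.34. Mean signals ran over the members from 2.97 to 8.61. The arrays ranked the members alike, with a correlation of 0.94 by both Pearson's and Spearman's measure across the 73 genes. Over all genes both measures gave 0.97. Genes share the same 2 RNA samples and are not independent replicates.

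**Figure D1:**
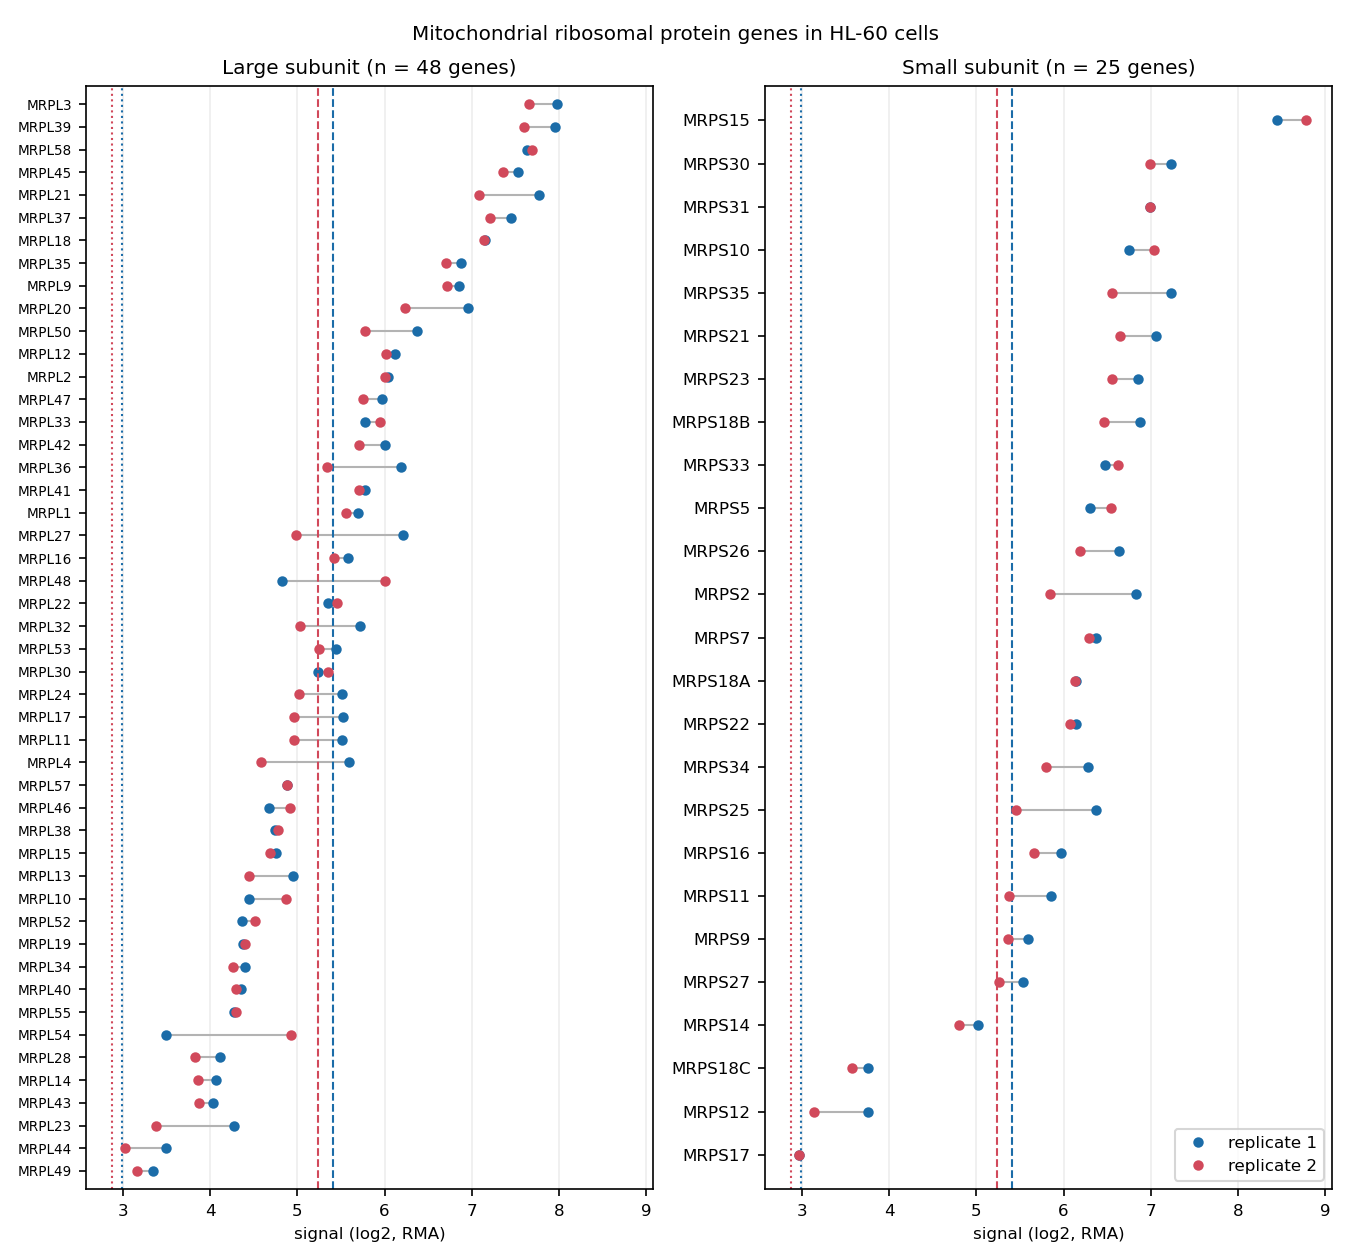
Signal (log2, RMA) of each member on replicate 1 (blue) and replicate 2 (red), the large subunit on the left and the small subunit on the right, sorted by mean. Dotted lines mark the olfactory threshold and dashed lines the second threshold of each array; MRPS17 alone lies at the olfactory threshold, and MRPS15 is the highest at 8.61.

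The one exception was MRPS17, whose small subunit protein has a bacterial counterpart. It read 2.97 on both arrays, below the olfactory threshold on replicate 1 and above it on replicate 2. The RefSeq table names 6 pseudogenes of MRPS17, and its equal values on the 2 arrays are of the kind described above.

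Genes of the small subunit had the higher signals. The median was 5.52 for the large and 6.37 for the small subunit on replicate 1, and 5.14 for the large and 6.13 for the small subunit on replicate 2. The median of the large subunit was thus lower by 0.92 ± 0.10 (SD, n = 2) on the log2 scale. On each array 10 of 48 large subunit genes lay above the small subunit's median, and 21 of 25 small subunit genes above the large subunit's median, so the distributions overlapped. The second threshold was passed by 21 of 48 large (43.8%) and 21 of 25 small subunit genes (84.0%). Some genes carry an S in their symbol although structures of the human ribosome place their proteins in the large subunit: MRPS30 (7.23 and 6.99) and MRPS18A (6.14 and 6.13). With both counted as large, the difference was -0.80 ± 0.03.

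The difference was smaller among members without a named pseudogene. Named pseudogenes, copies whose sequence could share probes, exist for 38 members, whose median signal was 6.05. The 35 members without one had a median of 5.27, and among those the large minus small difference was -0.54 ± 0.16. The small subunit genes among the 35 were only MRPS2, MRPS9, MRPS12, MRPS14, MRPS26, MRPS27, MRPS30 and MRPS34, so their median rests on few genes. The protein of MRPS30, the highest of these by signal, lies in the large subunit, as said above, but the gene was counted as small here. The difference with it counted as large was not computed for the 35 members. The part that shared probes play was not tested, since probe sequences were not used here.

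**Figure D2:**
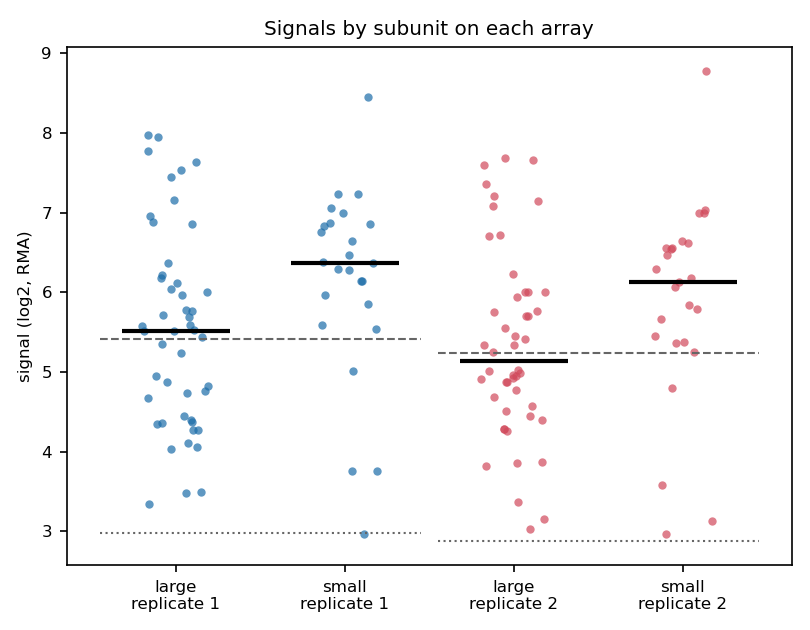
Signals (log2, RMA) of large and small subunit genes on each array, 1 point a gene, with the median as a black bar, the olfactory threshold dotted and the second threshold dashed. The large subunit median lies below the small subunit median on both arrays, at 5.52 against 6.37 and at 5.14 against 6.13.

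Descent from bacterial ribosomal proteins went with a higher median in the large subunit and a lower one in the small subunit. By mean signal, the 30 large subunit genes with a bacterial counterpart had a median of 5.39, and the 18 without one a median of 5.11. In the small subunit the 15 genes with a counterpart had a median of 6.13 and the 10 without one of 6.48. The second threshold was passed by 11 of the 15 with a counterpart and by 10 of the 10 without one. Within a subunit these medians of mean signals differed by at most 0.35, but medians on a single array could differ by more. For the large subunit they were 5.58 with and 4.85 without a counterpart on replicate 1, and 5.18 and 5.09 on replicate 2. For the small subunit they were 6.14 and 6.56 on replicate 1, and 5.84 and 6.37 on replicate 2.

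The large subunit was led by MRPL3, which lies close to the catalytic centre and is mutated in a mitochondrial cardiomyopathy. It read 7.98 and 7.66. MRPL39 read 7.95 and 7.60 and MRPL45, which holds the ribosome at the inner membrane, 7.53 and 7.36. MRPL58, a peptidyl-tRNA hydrolase that became a ribosomal protein, read 7.64 and 7.69. These signals lay above at least 96.8% of all genes by mean. MRPL21 (7.77 and 7.08), MRPL37 (7.45 and 7.21), MRPL18 (7.16 and 7.14) and MRPL35 (6.88 and 6.71) completed the 8 highest.

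At the low end stood MRPL49 (3.34 and 3.16) and MRPL44 (3.49 and 3.03). MRPL44 has a ribonuclease III fold, and its mutation causes cardiomyopathy. MRPL23 read 4.27 and 3.37, MRPL43 4.03 and 3.87, MRPL14 4.07 and 3.85, MRPL28 4.11 and 3.82, and MRPL55 4.27 and 4.29. MRPL54, at 3.49 and 4.93, was also among the 8 lowest by mean. All of these were above the olfactory threshold and none above the second.

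Around the exit tunnel, where the new chain leaves the ribosome, 3 of 9 genes passed the second threshold. Of all members 57.5% passed it, and of all genes 17%. The 3 at this site were MRPL39, MRPL45 and MRPL47 (5.97 and 5.75). MRPL22 read 5.35 and 5.46, MRPL24 5.51 and 5.02, MRPL17 5.52 and 4.97, and MRPL4 5.59 and 4.58, beside MRPL23 and MRPL44 above. Genes of one site thus spanned signals from 3.26 to 7.77 by mean. Of these 9 genes 8 were lower on replicate 2, with MRPL22 as the exception, where 74.0% of all members and 52.6% of all genes were lower.

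The stalk recruits translation factors to the large subunit. MRPL12, its mobile component, which also binds the mitochondrial RNA polymerase, read 6.12 and 6.01. Its anchor MRPL10 read lower, at 4.45 and 4.87, and MRPL11 at the stalk base 5.51 and 4.96. MRPL53 read 5.44 and 5.25. The 5 genes listed for this site, with MRPL54, held 2 above the second threshold, against 57.5% of all members and 17% of all genes.

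The central protuberance, which faces the small subunit, had 1 of 7 genes above the second threshold, against 57.5% of all members and 17% of all genes. That was MRPL18. MRPL27, a homologue of a bacterial protein that reaches the catalytic centre, read 6.22 and 4.99. MRPL48 went the other way, at 4.83 and 6.01. MRPL46 (4.68 and 4.91), MRPL38 (4.74 and 4.78), MRPL52 (4.36 and 4.52) and MRPL40 (4.35 and 4.29) lay below the second threshold on both arrays.

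Of the small basic proteins MRPL32 to MRPL36, MRPL35, MRPL33 (5.77 and 5.95) and MRPL36 passed the second threshold on both arrays. These 3 of 5 were near the 57.5% of all members, where 17% of all genes passed. MRPL32, which the m-AAA protease must cleave before it joins the ribosome, read 5.72 and 5.03, and MRPL34 read 4.40 and 4.26. MRPL36 was the single member with more than 1 probe set, and these disagreed. One read 5.10 and 3.26 and the other 7.27 and 7.40, so they lay 2.18 apart on replicate 1 and 4.14 apart on replicate 2. The gene's mean of 6.18 and 5.33, and its difference of -0.85 between the arrays, came from the first of them, since the second was higher on replicate 2 by 0.13.

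In the small subunit MRPS15, an early binder of the ribosomal RNA, was the highest of all members at 8.45 and 8.78. MRPS30 followed at the values above, and MRPS31 read 6.99 on both arrays. MRPS10 read 6.75 and 7.04, MRPS35 7.24 and 6.55, MRPS21 7.06 and 6.65, MRPS23 6.85 and 6.55, and MRPS18B 6.87 and 6.47. MRPS15 stood apart at the top, while the next 7 lay within 0.44 of each other by mean.

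The decoding site and the mRNA channel of the small subunit held both high and low signals. MRPS12, the homologue of the bacterial protein in which streptomycin resistance arises, read 3.76 and 3.14 and was the lowest small subunit gene after MRPS17. The mRNA channel proteins MRPS5 (6.30 and 6.55) and MRPS2 (6.83 and 5.84) passed the second threshold. So did MRPS7 (6.37 and 6.29), MRPS11 (5.85 and 5.38) and MRPS9 (5.59 and 5.36) of the head and platform. This made 5 of the 6 measured genes listed here, against 57.5% of all members and 17% of all genes. Among genes mutated in inherited respiratory chain deficiency, MRPS16 read 5.97 and 5.66 and MRPS22 6.14 and 6.07. MRPL41, which also binds BCL2, read 5.77 and 5.71.

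The 3 members of the MRPS18 family descend from the same bacterial protein and occupy different places in the ribosome. MRPS18B had the highest signal of them, MRPS18A read 6.14 and 6.13, and MRPS18C, the one in the bacterial position, read 3.75 and 3.58. The RefSeq table names 6 pseudogenes for MRPS18C and 1 for MRPS18A. The other low members of the small subunit were MRPS14 (5.02 and 4.80) and MRPS27 (5.54 and 5.26), a protein with pentatricopeptide repeats.

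The remaining members filled the middle of the range. MRPL2, which helps to form the catalytic centre, read 6.04 and 6.01, and MRPL9, known in bacteria as a long protein at the ribosome's surface, 6.86 and 6.71. MRPL42 averaged 5.85 ± 0.21 (SD, n = 2). MRPL50 read 6.37 and 5.77, MRPL1 5.69 and 5.55, and MRPL16 5.58 and 5.42. All of these passed the second threshold. MRPL30 (5.24 and 5.34), MRPL13 (4.95 and 4.45), MRPL15 (4.76 and 4.69) and MRPL19 (4.38 and 4.40) did not, nor did MRPL57, at 4.88 on both arrays. In the small subunit MRPS33 read 6.47 and 6.62, MRPS26 6.64 and 6.18, MRPS34 6.28 and 5.80, and MRPS25 6.37 and 5.46, all above the second threshold.

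Ribosomal proteins that go under other symbols gave a like range. DAP3, a GTP-binding protein of the small subunit known first from cell death, read 7.83 and 7.73, and the pentatricopeptide protein PTCD3 7.42 and 7.16. GADD45GIP1, at the exit tunnel, read 5.15 and 4.90, and CHCHD1 3.50 and 3.94. AURKAIP1 had no probe set of its own here.

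Promoters of the members shared short motifs more often than other promoters did. RefSeq promoter windows (GRCh38.p14, 250 bases before to 50 after a start) were found for 66 of 73 members. No window was used for MRPL2, MRPL10, MRPL13, MRPL15, MRPL21, MRPL23 and MRPL35. On either strand, the ETS motif CCGGAAG, which GABPA binds, was present for 29 of 66 members (43.9%). It was present for 28.0% of genes above the second threshold, 16.8% of all genes measured and 12.2% of all genes in the promoter table. The YY1 motif AAGATGGCG was present for 12 members (18.2%), and for 6.54%, 3.37% and 2.14% of those 3 sets. For 37 members (56.1%) there was at least 1 of these motifs, as for 32.9% of genes above the second threshold, and 4 members had both.

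The YY1 motif mostly sat just past the start and on the gene's own strand. It holds ATG, the letters of a start codon, and whether it overlapped translation starts was not tested. Its match read along the gene's strand for 9 of the 11 members printed next, and lay within 50 bases of the start for 9. They are shown because the ratio of the members' share to that of genes above the second threshold was larger for this motif than for the ETS motif. The strand is that of the printed bases, the motif is in capitals, and the twelfth match, of MRPL22, lay too near the edge of its window to print.
MRPS30 (chr5:44808952-44808976, + strand): cgcgggcaAAGATGGCGgcggccag
MRPS10 (chr6:42217836-42217860, - strand): ggaccggcAAGATGGCGgcgcggac
MRPS18B (chr6:30617855-30617879, + strand): cgtacgtcAAGATGGCGgcgtctgt
MRPS18A (chr6:43687766-43687790, - strand): ggtttttgAAGATGGCGgccctcaa
MRPL50 (chr9:101398579-101398603, - strand): tctcatcgAAGATGGCGgcgcgatc
MRPL42 (chr12:93467514-93467538, + strand): attgaaacAAGATGGCGggttcgtg
MRPL36 (chr5:1799857-1799881, + strand): caggaaggAAGATGGCGgcgggggg
MRPL32 (chr7:42932145-42932169, - strand): ttcgggtaAAGATGGCGgagcgcgg
MRPL46 (chr15:88467364-88467388, - strand): gagaacgaAAGATGGCGgcgcccgt
MRPL38 (chr17:75904862-75904886, - strand): ccggagggAAGATGGCGgcgccctg
MRPL52 (chr14:22829815-22829839, + strand): ccagattcAAGATGGCGacttcctg

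ETS matches clustered upstream of the start. The match nearest the start had its centre within 50 bases of it for 25 of 29 members, with a median at -15, and it read along the gene's strand for 13 and against it for 16. Counted in the first window of each member, as some had several, no ETS match overlapped a YY1 match. The 10 members with the highest signals among the 29 are printed with the motif in capitals, to show how the bases around it vary.
MRPL3 (chr3:131502989-131503011, - strand): aaaacgcaCCGGAAGtgggtccg
MRPL58 (chr17:75012654-75012676, + strand): agcgcccgCCGGAAGcagtcgca
MRPL18 (chr6:159790433-159790455, - strand): ccaccgacCCGGAAGtagcaagt
MRPS31 (chr13:40771208-40771230, - strand): gcgccaggCCGGAAGcggaagag
MRPS10 (chr6:42217869-42217891, - strand): ctgtaaccCCGGAAGcaatcctg
MRPS21 (chr1:150293842-150293864, - strand): tctcactaCCGGAAGcggaaatt
MRPS23 (chr17:57850044-57850066, + strand): taccggaaCCGGAAGcggctgct
MRPL20 (chr1:1407300-1407322, - strand): gggctgacCCGGAAGcgctcgtg
MRPS33 (chr7:141014938-141014960, + strand): ccctcgtcCCGGAAGgcccgccc
MRPS26 (chr20:3046007-3046029, - strand): accgtgccCCGGAAGcggcgcgg

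Other motifs did not set the members apart in the same way. The NRF1 motif GCGCATGCG was found for 3 members (4.55%), against 5.54% of genes above the second threshold. The GC box GGGCGG was found for 39 (59.1%), against 76.7%, and TATAAA for 3 as well, against 8.38%. Overlap of an ETS match with a GC box occurred once among the 37 ETS matches in the first window of each member. By mean signal, members with the ETS motif had a median of 5.86 and those without it 5.62, while for the YY1 motif the medians were 5.81 and 5.62. For the GC box they were 5.50 with it and 5.85 without it. The NRF1 motif and TATAAA, with 3 members each, had medians of 5.24 and 7.15, against 5.76 and 5.62 without them. A match describes the letters of the window and is no evidence of binding in HL-60 cells.

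**Figure D3:**
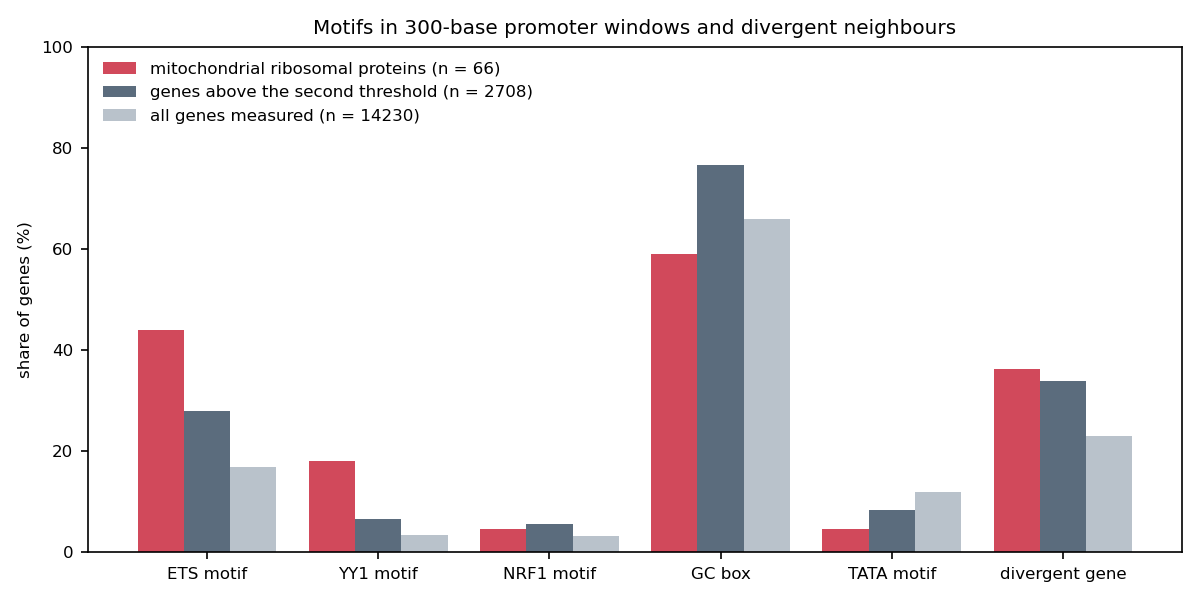
Share of genes (%) whose RefSeq promoter window of 300 bases holds each motif on either strand, or whose start faces another gene's start within 1000 bases, for 66 members, 2708 genes above the second threshold and 14230 genes measured. The ETS motif reaches 43.9% and the YY1 motif 18.2% of members, against 28.0% and 6.54% of genes above the second threshold.

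Members were transcribed away from a close neighbour about as often as genes above the second threshold. For 24 of 66 (36.4%) the start of another gene lay within 1000 bases upstream on the opposite strand, as for 33.8% of genes above the second threshold and 23.0% of genes measured. For 19 of them the neighbour was measured, and 6 of these neighbours passed the second threshold, which 17% of all genes did. MRPL46 and MRPS11 face each other across 319 bases, a large and a small subunit gene, and read 4.68 and 4.91 for MRPL46 against 5.85 and 5.38 for MRPS11. MRPL18 faces TCP1, a subunit of the cytosolic chaperonin, which read 10.51 and 10.28, and MRPL32 faces the proteasome gene PSMA2, which read 6.13 and 6.09. Of the 19 members, 12 had a higher mean signal than their neighbour and 7 a lower one.

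The bases between the starts are shown for the closest pair of those with another gene of protein synthesis, and for one in which both genes serve mitochondrial translation. MRPL49 is 48 bases from FAU, which encodes a protein of the cytosolic ribosome fused to a ubiquitin-like domain. MRPL49 read 3.34 and 3.16, and FAU 7.86 and 7.67. MRPS12 is 180 bases from SARS2, the mitochondrial seryl-tRNA synthetase, which read 4.22 and 3.14. Both genes of the MRPS12 pair were lower on replicate 2, by 0.62 for MRPS12 and 1.09 for SARS2. Neither stretch held a whole ETS, YY1 or NRF1 motif (the ETS match of MRPS12, centred at -2, runs across the start), so no base is in capitals, and each is printed 5′ to 3′ along the member's strand (GRCh38.p14).
MRPL49 and FAU (chr11:65122135-65122182, + strand): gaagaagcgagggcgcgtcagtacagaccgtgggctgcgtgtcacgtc
MRPS12 and SARS2 (chr19:38930764-38930943, + strand): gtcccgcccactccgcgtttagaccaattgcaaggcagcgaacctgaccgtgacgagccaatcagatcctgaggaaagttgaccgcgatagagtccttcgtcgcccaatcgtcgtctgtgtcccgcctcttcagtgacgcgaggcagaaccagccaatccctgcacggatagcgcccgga

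The 2 arrays did not agree on the level of the members as a whole. On replicate 2, 54 of 73 members read lower than on replicate 1 (74.0%), 16 higher and 3 equal, while 52.6% of all genes read lower. The median difference, replicate 2 minus replicate 1, was -0.18 over members and -0.04 over all genes. It was -0.17 over the 48 large and -0.24 over the 25 small subunit genes, of which 35 and 19 read lower. Each array stands for 1 sample, so this difference has no replicate check.

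Larger differences ran mostly one way. A total of 16 members (21.9%) differed by more than 0.5, near the 17.5% of all genes. Of these 14 were lower on replicate 2 (19.2%, against 9.58% of all genes) and 2 were higher (2.74%, against 7.95%). MRPL27 (-1.23), MRPL4 (-1.01), MRPS2 (-0.99), MRPS25 (-0.91), MRPL23 (-0.90), MRPL36 (-0.85), MRPL20 (-0.72) and MRPL32 (-0.69) were the 8 lowest, MRPL20 with signals of 6.95 and 6.23. MRPL27 was 2.35 times lower on replicate 2. The 2 higher ones were MRPL54 (1.44) and MRPL48 (1.18). They were followed by MRPL10 (0.42), MRPS15 (0.33), MRPS10 (0.28), MRPS5 (0.25), MRPL46 (0.23) and MRPL33 (0.18).

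Members that passed the second threshold showed the same lean. Of these 42 genes, 35 were lower on replicate 2, as were 52.7% of the 3137 genes above that threshold, and their median difference was -0.22. When the arrays were quantile-normalized against each other, 56 members were lower, and after removal of a loess trend 55. A few members changed sign under 1 of these scalings, MRPL18, MRPL19 and MRPL55, all of which differed by less than 0.05 as deposited.

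Other mitochondrial genes also had median differences below 0, and cytosolic ribosomal proteins one above 0. Over all genes the median difference was -0.04, with 52.6% lower on replicate 2. The 80 genes with symbols of respiratory chain or ATP synthase proteins, among them 2 pseudogenes and the inhibitor gene ATP5IF1, had a median difference of -0.25, with 57 lower on replicate 2. Without those it was also -0.25, with 55 of 77 lower. The 14 organelle markers had a median difference of -0.38, with 13 lower. Among these markers the inner membrane scaffold gene PHB1 had the largest difference, at 8.46 and 6.89, and citrate synthase, CS, read 7.82 and 7.20. The 2 highest, HSPD1 (9.22 and 9.16) and HSPA9 (8.75 and 8.72), differed little. TOMM20 was the one that read higher on replicate 2, at 6.95 and 7.19. For 66 genes with symbols of cytosolic ribosomal proteins the median difference was 0.13, with 25 lower. It was 0.01 after quantile normalization and 0.09 after removal of the loess trend. Of these 66 genes 60 exceeded the olfactory threshold, and others, such as RPL10L and RPS4Y1, did not. All lists come from the same 2 arrays. The 8 markers of the line had a median difference of -0.33, with 5 of 8 lower, which were CTSG (8.99 and 7.24), PRTN3 (7.95 and 6.47), MPO, MYC and SRGN. The others read higher on replicate 2, the granule protease gene ELANE at 4.47 and 4.71, AZU1 at 3.01 and 3.19, and MYB. Their part in the members' difference was not tested.

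**Figure D4:**
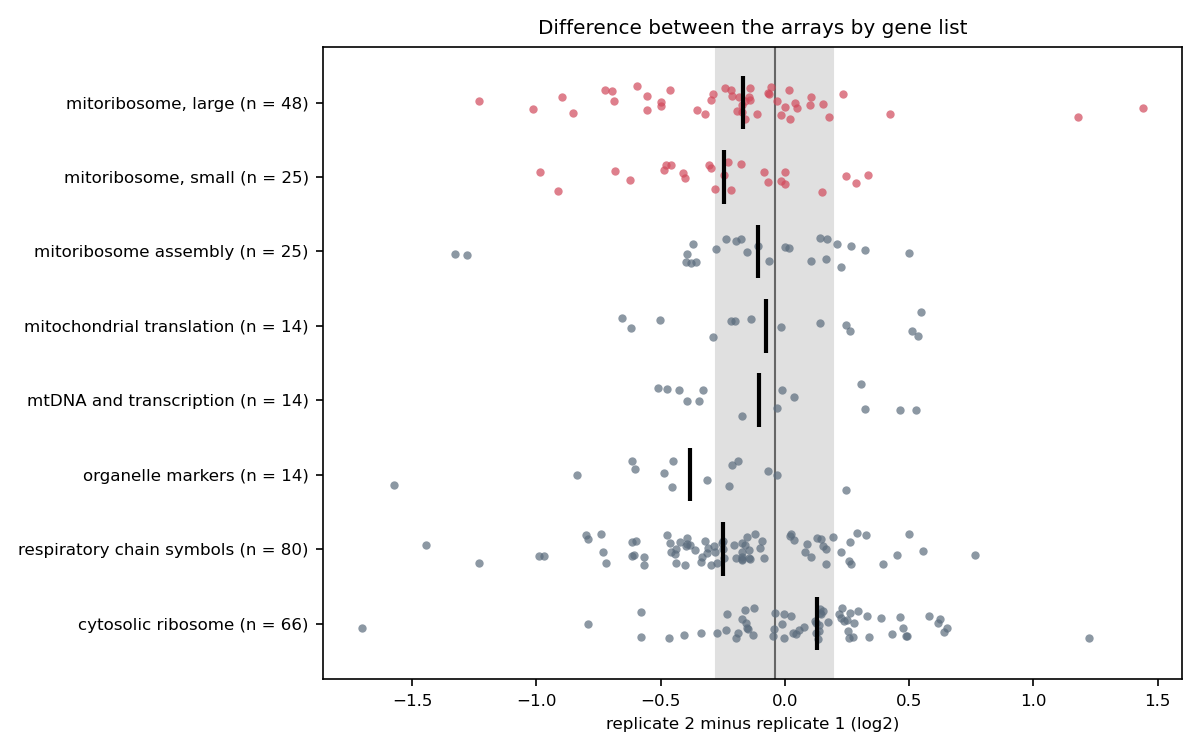
Difference between the arrays (replicate 2 minus replicate 1, log2), 1 point a gene, for the members by subunit and for 6 other gene lists; black bars are medians, the grey line is the median and the grey band the middle 50% of all genes. The medians of the large and small subunit (-0.17 and -0.24) lie left of the line at -0.04, and that of the cytosolic ribosome lies right of it.

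Genes that build and run the mitochondrial ribosome were mostly above the olfactory threshold as well. Of 25 assembly factors 24 exceeded the olfactory threshold and 10 the second, against 55.8% and 17% of all genes. MALSU1 (7.53 and 7.16) and the GTPase GTPBP10 (7.13 ± 0.19, SD, n = 2), which both act on the large subunit, were the highest, and METTL15, an rRNA methyltransferase of the small subunit, the lowest at 2.73 and 2.96. Their median difference was -0.11, with 14 of 25 lower on replicate 2, where 52.6% of all genes were. All 14 measured translation factors and regulators exceeded the olfactory threshold and 9 the second, against the same 55.8% and 17% of all genes. OXA1L, which inserts new chains into the inner membrane, read 8.73 and 8.99, and LRPPRC, which stabilises mitochondrial mRNAs, 8.26 and 8.24. TSFM, the exchange factor of the elongation factor TUFM, was the lowest at 4.36 and 4.90. Of these 14 genes 8 were lower on replicate 2 (57.1%, near the 52.6% of all genes), with a median difference of -0.08. Differences between the lists were not tested.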

How the data were processed

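Log2 signals per probe set were made by the authors with RMA, per the submitters' processing notes; the version, the log base and the set of arrays normalized with these are not stated in the sources used here. Base 2 was assumed, as RMA's usual base. Per the labels' protocols, 200 ng of total RNA was amplified and biotin-labelled for each array. Without scanner files, background correction and detection could not be examined, and the number of arrays limits the precision. RMA equalises arrays, which hides any change in total RNA.

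Of 32321 probe sets, 19158 carried 1 symbol, 1388 several and 11775 were not listed in the platform annotation. Symbols were updated through Entrez IDs (19128 matched, RefSeq GRCh38.p14), and probe sets of a gene were averaged. A gene was above a threshold where it exceeded it on both arrays. No test was run, because there is 1 group of 2 arrays. The members, lists and thresholds were chosen with earlier results of these data known. The lists of descent, ribosome site and mitochondrial function were written from general knowledge, and the motifs were picked after the signals had been seen. Values on both arrays are given for members not above background, the 8 highest and 8 lowest of each subunit, the 8 largest differences in each direction, members with several probe sets and those of the site lists, as well as the 2 highest or the lowest of most other lists. The normalization steps were tested on simulated data. Alternatives were quantile normalization, loess, the highest probe set, updated symbols, membership by structure, no members with pseudogenes, dim genes left out, a 99th percentile threshold and each array alone. Python 3.11.15, numpy 2.4.6, pandas 2.3.3, statsmodels 0.14.6 and matplotlib 3.10.9 were used.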

Additional observations from a re-analysis of the deposited data

Results flagged for a closer look

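Signal above the olfactory threshold also appeared in 6 probe sets that the comparisons left out. The probe set shared by MRPL51 and SPTLC1 had a mean of 9.60, above every member. Those shared by MRPS24 and the readthrough gene URGCP-MRPS24 (6.76), by MRPS6 and SLC5A3 (4.43), by URGCP and URGCP-MRPS24 (4.31) and by MRPS28 and TPD52 (3.82) cannot be assigned to 1 gene. The pseudogene MRPS31P5 read 4.64.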

How the results depend on the processing

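No paired analysis was possible because the series has no second group. Without members that have a named pseudogene, 35 genes were left, of which 35 exceeded the olfactory threshold and 16 the second. Of these genes, 26 were lower on replicate 2 and 8 differed by more than 0.5. The shares of all genes for these counts were 55.8%, 17%, 52.6% and 17.5%. The large minus small median difference by symbol was -0.54 in place of -0.92. With genes above the second threshold only, an alternative chosen after seeing the data, it was -0.19. Of the 42 members left, 35 were lower on replicate 2 and 7 differed by more than 0.5. Over all 3137 genes above that threshold, 52.7% were lower and 17.4% differed by that much. Fewer genes were compared in both cases, and this last choice acts on the signal compared and leaves out low genes. At the 99th percentile 66 members exceeded the olfactory threshold in place of 72, and 26 the second in place of 42. The shares of all genes at that percentile, or on 1 array alone, are not given here. On 1 array alone, 72 to 73 members exceeded the olfactory and 45 to 48 the second threshold, and the large minus small difference lay between -0.99 and -0.85. With membership by structure, where MRPS30 and MRPS18A count as large and DAP3, GADD45GIP1, CHCHD1 and PTCD3 are added (77 genes), the large minus small difference was -0.86, and -0.80 over the 73 genes without those added. The other results under these alternatives moved by less than 1.5 times for counts and by less than the SD of the arrays for differences, and none reversed. For the median difference between the arrays that SD is a fixed fraction of the difference itself, so the limit is wide. Its values ran from -0.22 to -0.17. Updated symbols gave the same 73 members, so that alternative changed nothing. Differences between the arrays could not be computed on 1 array.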

Other observations

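Genes that maintain and transcribe mitochondrial DNA, which makes the RNAs of this ribosome, were all above the olfactory threshold (14 of 14). The second was passed by 7. Of all genes 55.8% passed the olfactory and 17% the second threshold. SSBP1, the single-stranded DNA binding protein, read 7.50 and 7.49 and TFAM, which packages the genome, 7.07 and 6.56. The helicase gene TWNK was the lowest at 4.04 and 3.71. Of the 14 genes 9 were lower on replicate 2, where 52.6% of all genes were, with a median difference of -0.10.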
